A study of Homo sapiens with 4 samples.

Results

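The solute carrier (SLC) genes were examined for N6-methyladenosine (m6A) in MDA-MB-231 cells. Members were all protein-coding genes whose symbol consists of SLC, a family number, the letter A and a member number. Of 19310 protein-coding genes matched to a nuclear RefSeq gene, 347 were members, in 56 families. Among them, 336 carried such a symbol in the table that pairs gene IDs with names, and 11 had received it by renaming and were found through a synonym.

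MDA-MB-231 is a human cell line established from a breast cancer that lacks hormone receptors and HER2 (triple negative). The series held 2 input and 2 immunoprecipitated (IP) libraries of fragmented poly(A) RNA, all from cells carrying the label shNS, with no other genotype, treatment or time point. The treatment field of the IP libraries names YTHDC1, whereas the titles and the protocol describe an antibody against m6A, and the latter was used here. The libraries had been combined into 1 list of 20261 peaks, each with 1 score and no value for a single library, so neither a spread between replicates nor a test between samples could be computed.

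Solute carriers are membrane proteins that move nutrients, ions, metals and metabolites across the plasma membrane and the membranes of organelles, and a family number groups members of related sequence that often share a kind of substrate. m6A is written on adenosines of mRNA by a methyltransferase complex, mostly within a short sequence of a purine pair followed by AC, and lies preferentially near the stop codon and in long exons. Reader proteins such as YTHDC1 bind it and affect splicing, nuclear export, stability or translation of the transcript. In breast cancer cells the carriers are best known for supplying glucose and amino acids and for removing lactate and protons.

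Of the 347 solute carrier genes, 138 had at least 1 peak and 209 had none. This was a share of 39.8% (95% Wilson interval 34.8 to 45.0), and 42.6% of all protein-coding genes had a peak. The interval holds the share of all genes, so the solute carriers as a whole were not set apart by it. These intervals allow for counting error alone, as if genes and peaks were independent. The number of reads behind a peak is unknown.

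The share was also taken on each strand. A strand that does not depend on the list was known for 274 members through a RefSeq promoter entry. Among the 134 of these on the plus strand, 39 had a peak, 29.1% (22.1 to 37.3), where 30.2% of all plus-strand protein-coding genes had one. Among the 140 on the minus strand, 69 had a peak, 49.3% (41.1 to 57.5), where the share of all minus-strand protein-coding genes was 57.5%. Solute carriers on the plus strand therefore lay at the background of their strand, and those on the minus strand lay below theirs, which stands at the upper end of their interval. Genes are not replicates, and the difference was not tested.

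Other membrane transporter genes were set beside the solute carriers and the 42.6% of all protein-coding genes. A peak was listed for 17 of 45 ABC transporter genes, 37.8% (25.1 to 52.4). The P-type and V-type ATPase genes, which pump ions with the energy of ATP, had one in 29 of 65 genes, 44.6% (33.2 to 56.7). For the potassium channel genes the count was 25 of 83, 30.1% (21.3 to 40.7). All 3 intervals overlap that of the solute carriers, that of the potassium channels lies below the share of all genes, and the differences were not tested.

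The 138 solute carrier genes held 272 peaks, 1.97 ± 1.23 (SD over 138 genes) per gene with a peak, against 2.10 ± 1.50 over 8229 protein-coding genes with a peak. A single peak was found in 65 of them, 37 had 2 peaks, 21 had 3 and 15 had 4 or more. Hence 73 of 138, or 52.9% (44.6 to 61.0), had at least 2 peaks, with 55.0% among all genes with a peak. From here on, members with a peak are split by the strand that the list gives, which is known for all of them, so 47 were on the plus and 91 on the minus strand. The 47 had 1.45 ± 0.717 peaks each and never more than 3, against 1.66 ± 1.06 over all plus-strand protein-coding genes with a peak. The 91 had 2.24 ± 1.34, against 2.33 ± 1.65. All 15 members with 4 or more peaks were on the minus strand, 16.5% of the 91, which is near the 17% of all minus-strand genes with a peak, and on the plus strand 6.1% of all genes with a peak had as many.

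The minus strand thus had more members with a peak and more peaks in each. Of the 272 solute carrier peaks, 204, 75% (69.5 to 79.8), were on the minus strand, and 72.2% of all peaks on protein-coding genes were. Peaks on the minus strand also had smaller scores. The score is taken here as the peak caller's p-value, so that a smaller score marks a stronger peak. Strong and weak refer to this score alone. A p-value also depends on the number of reads, and neither that nor the level of the transcript is in the list. The score is therefore no measure of how much of a transcript is methylated. For solute carrier peaks the median score was 3.85e-05 on the plus and 7.1e-11 on the minus strand, where the medians over all protein-coding genes were 1.5e-05 and 4e-12. The imbalance between strands was thus a property of the whole list that the solute carriers shared.

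The strongest peak of each member spanned a wide range. On the −log10 scale, the median of the strongest peak was 5.55 over the 47 plus-strand members and 27.2 over the 91 minus-strand members, with medians of 6 and 30.9 over all protein-coding genes. A score of 1e-20 or less was reached by 59 members, 17.0% (13.4 to 21.3) of all 347, and by 19.0% of all protein-coding genes. A −log10 score of 100 or more was reached by 23 members, 16.7% of those with a peak, against 17.8% over all genes, and by strand by 2.13% against 3.81% on the plus and 24.2% against 25.4% on the minus strand. Of the 23, SLC5A2, the sodium-glucose cotransporter of the kidney tubule, was the only one on the plus strand. That peak was covered by a peak of a neighbouring gene on the other strand, as given further on.

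**Figure D1:**
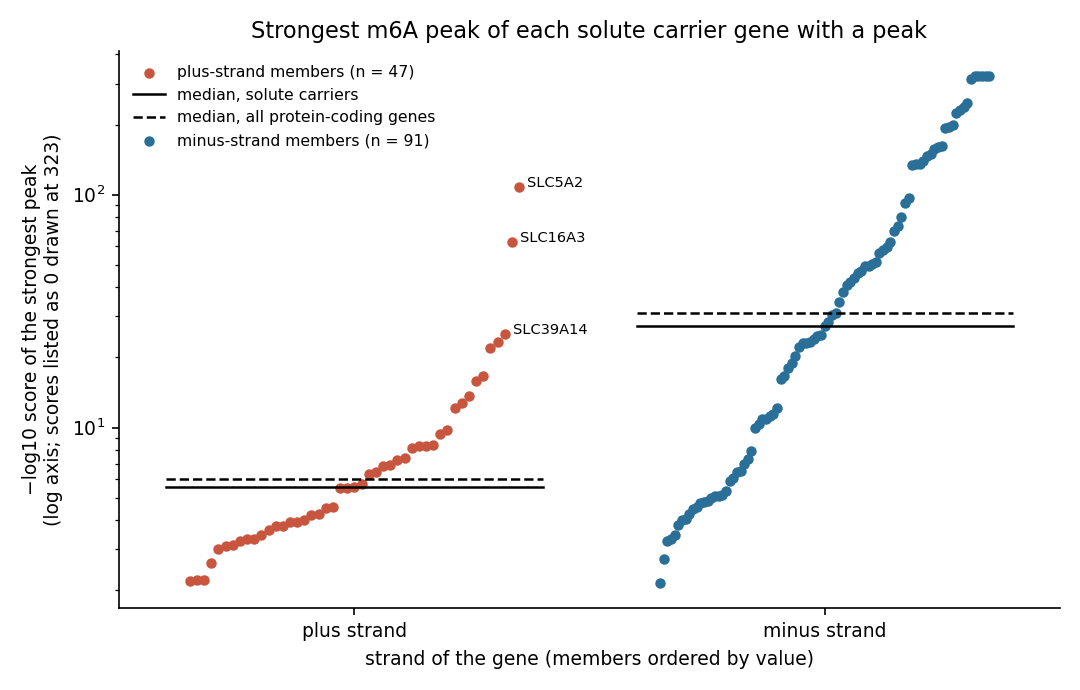
Strongest peak of each solute carrier gene with a peak, as the −log10 of its score on a log axis, for the 47 plus-strand and 91 minus-strand members, ordered by value. Solid lines are the medians of the members (5.55 and 27.2) and dashed lines those of all protein-coding genes with a peak (6 and 30.9). Minus-strand members reach far higher values, and the members lie close to all genes within each strand.

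Peaks of solute carriers were otherwise of the usual size. Their median spliced length was 211 bases, as over all protein-coding genes, with quartiles of 150 and 360 and a range from 60 to 2218. The longest was the peak at the 3′ end of SLC9A3, the sodium-proton exchanger of absorptive epithelia. Peaks that ran over more than 1 exon block made up 40 of 272, or 14.7%, against 18.4% over all genes. By strand the direction differed, with 17.6% against 13.8% on the plus strand and 13.7% against 20.2% on the minus strand.

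The share with a peak was also set beside the length of the gene. Solute carrier genes were longer, with a median genomic span of 37056 bases against 25443.5 over all protein-coding genes. Over all genes the share with a peak was 32.5% in the shortest of 4 equal bins of span and 43.5%, 47.8% and 46.7% in the following bins. Over the solute carriers it was 34.0%, 49.4%, 39.2% and 34.9% in the same bins. In the longest bin, spans from 67435 bases, 30 of 86 members had a peak, and the interval of 25.7 to 45.4 lies below the share of all genes of that length. In the other 3 bins the interval of the members holds the share of all genes, and a difference in the relation to length was not tested. The level of the transcripts is not in the list, and its part in this was not tested.

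Members were then grouped by substrate, each family as a whole. Mitochondrial carriers, the SLC25 family, most of them in the inner mitochondrial membrane, had a peak in 26 of 48 members, 54.2% (40.3 to 67.4). The metal transporters had one in 17 of 32 members, 53.1% (36.4 to 69.1). In the amino acid group the count was 22 of 60, 36.7% (25.6 to 49.3), and in the sugar group 12 of 33, 36.4% (22.2 to 53.4). None of these intervals excludes the 42.6% of all protein-coding genes.

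A pair of groups lay lower. Only 4 of 30 carriers of organic ions, bile acids and drugs had a peak, 13.3% (5.31 to 29.7), and 1 of 13 in the vesicular neurotransmitter group, 7.69% (1.37 to 33.3). The latter group is SLC17, SLC18 and SLC32 taken as whole families, so its name does not describe every member. Many carriers in this pair of groups are best known from liver, kidney and neurons. The 4 members with a peak in the former group were SLC22A23, SLC22A4, SLC10A3 and SLC10A5, and the member with a peak in the latter was SLC17A9, which loads ATP into vesicles. Without expression values, a transcript that is absent from these cells and one that is present without m6A cannot be told apart.

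**Figure D2:**
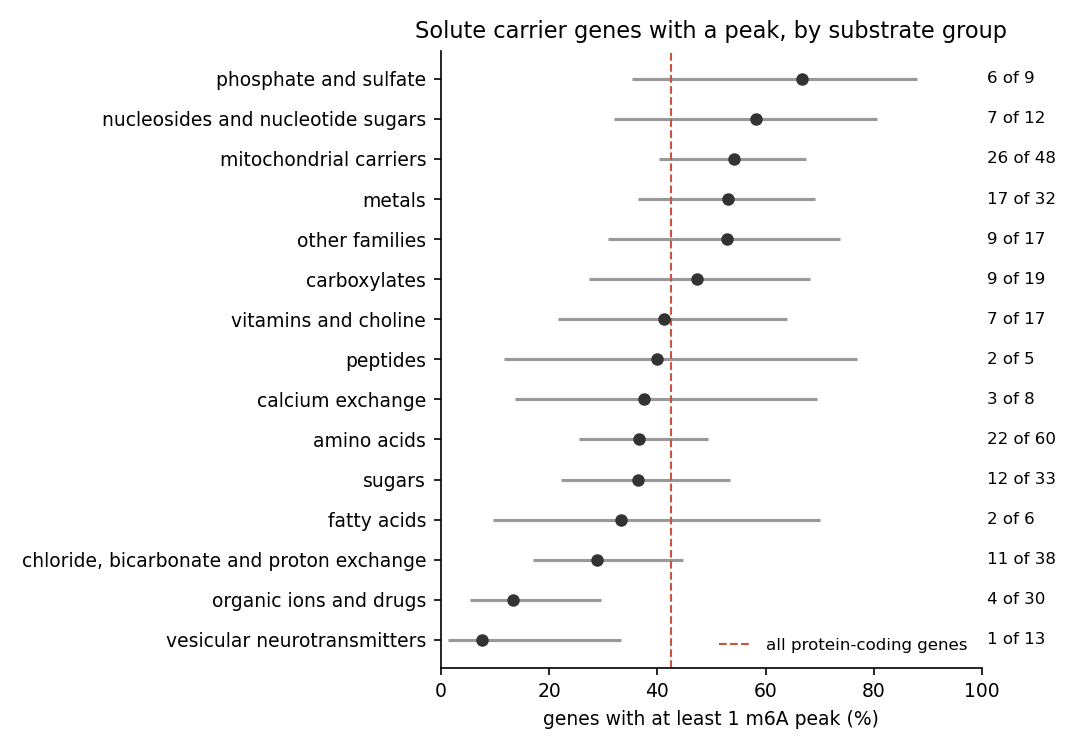
Share of solute carrier genes with at least 1 m6A peak, in percent, by substrate group, with 95% Wilson intervals and the counts at the right. The dashed line is the share of all protein-coding genes, 42.6%, and the intervals of organic ions and drugs (4 of 30) and of vesicular neurotransmitters (1 of 13) lie below it.

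By family number, 46 of 56 families had a peak in at least 1 member. Each of the 15 families with 9 or more members had at least 1, and together they held 224 members, of which 82 had a peak. The share among them ran from 9.52% (2 of 21) in SLC22, the organic ion transporters, to 57.1% (8 of 14) in both SLC16, the monocarboxylate transporters, and SLC39, the zinc importers. Close to SLC22 were SLC4, the bicarbonate transporters, with 1 of 10, SLC26, the anion exchangers, with 1 of 10, and SLC17 with 1 of 9. In SLC6, the sodium and chloride coupled transporters of neurotransmitters and amino acids, 4 of 19 had a peak. Near the upper end were SLC9, the sodium-proton exchangers, with 5 of 9, and SLC25 with 26 of 48. The intervals of SLC22 (2.65 to 28.9) and of SLC4 and SLC26 (each 1.79 to 40.4) lie below the 42.6% of all protein-coding genes. Those of SLC17, SLC6, SLC16, SLC39, SLC9 and SLC25 hold it. These are the ends of a range over 15 families, and no test was made.

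The 10 families without a peak were small: SLC14, SLC18, SLC28, SLC32, SLC44, SLC47, SLC48, SLC50, SLC68 and SLC75. The choline transporter-like family SLC44, with 5 members, was the largest of them. In 7 families every member had a peak, all of them with 3 members or fewer: SLC19, the folate and thiamine carriers, SLC20, the phosphate importers, SLC41, the magnesium transporters, and SLC33, SLC40, SLC61 and SLC71. All 3 members of SLC19 and all 3 of SLC41 are on the minus strand. Within SLC25, 13 of 19 members known to be on the minus strand had a peak and 7 of 21 on the plus strand, so a family's count also moves with the strand of its members.

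To place peaks, the span of each gene was cut into 10 equal parts from its 5′ to its 3′ end, called the first to the final part. The smallest scores are given first. A score listed as 0, too small to be stored, was given to 7 solute carrier peaks on 5 genes: SLC38A10, SLC7A1, SLC7A5, SLC1A5 and SLC2A1. The first 4 of these move amino acids and the last moves glucose. Of the 23 members with a −log10 score of 100 or more, 6 were in the amino acid group. All 5 are on the minus strand, where 3.30% of all peaks on protein-coding genes were listed at 0, against 3.43% of the solute carrier peaks.

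SLC38A10, a sodium-coupled amino acid transporter, had 7 peaks, more than any other member. Its strongest peak, chr17:81245500-81247058, held 1348 bases in 2 blocks and lay 689 bases before the 3′ end of the gene. A second strong peak followed upstream at chr17:81252132-81252581, with a score of 1e-172. Of the other 5, those at the 3′ end and next to the second peak had scores of 2e-18 and 6.3e-20, and the remaining 3 were weak, from 7.4e-09 to 0.0021. All but 1 of the 7 peaks lay in the last 2 of the 10 parts.

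SLC7A1, the importer of arginine and lysine, had 4 peaks, all in the final part of its span. The strongest, chr13:29513572-29514559, was 988 bases long and listed at 0, and the others had scores of 6.3e-32, 1.3e-10 and 8.9e-05. SLC7A5, the light chain of the leucine transporter LAT1, had 2 peaks listed at 0, chr16:87830802-87831491 with 690 bases and chr16:87832330-87832809 with 480 bases. Its other peaks were at the 3′ end (6.3e-11) and in the first part (1e-10). SLC3A2 encodes the heavy chain that brings SLC7A5 to the cell surface, and on the plus strand it had only weaker peaks, of 4e-09 and 0.0027.

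SLC1A5, the glutamine importer ASCT2, had 2 peaks, both listed at 0. One, chr19:46787613-46788594, covered 982 bases from the 5′ end of the gene, and the other, chr19:46775329-46775597, covered 269 bases near the 3′ end. SLC38A2, which imports glutamine and alanine, had a peak of 1e-31 in the final part, one of 5e-16 that began at the 5′ end of the gene and a weak one of 0.0029. SLC7A11, which imports cystine in exchange for glutamate, had a single peak of 4e-11 in the ninth part. SLC6A6, the taurine transporter, had a single weak peak of 0.00012 in its first part. SLC43A3, of an amino acid transporter family but known to carry purine bases, had peaks of 1e-224 and 1.3e-19 in its final part.

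Glucose transporters differed among themselves. SLC2A1 (GLUT1) had a peak listed at 0 in its final part, chr1:42926479-42927075, and one of 1e-221 whose 269 bases fell in 2 blocks, the first of them at the 5′ end of the gene. SLC2A3 (GLUT3) had peaks of 2e-63, 1.6e-18 and 8.5e-05, all listed in a second, shorter run of chromosomes at the end of the list. Its near-identical paralog SLC2A14 had none, and how reads common to both were assigned is uncertain. SLC45A4, a member of the proton-coupled sugar transporter family, had 5 peaks, of which the strongest was at 7.9e-42. SLC5A3, the myo-inositol importer, had no peak.

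The carriers of lactate and of ions were uneven. SLC16A3 (MCT4), a lactate exporter, was among the strongest on the plus strand, with a peak of 2e-63 at chr17:82238788-82239178, 908 bases before the 3′ end. It had further peaks of 6.3e-12 and 0.0012. SLC16A1 (MCT1), which carries lactate in either direction, had 1 weak peak of 0.0019. SLC9A3 had a peak of 1e-232 that shares bases with one on the other strand. SLC12A2, the sodium-potassium-chloride importer, and SLC4A7, a bicarbonate importer, had no peak.

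Most peaks of the metal transporters lay inside the gene rather than at its 3′ end. SLC39A3 (ZIP3), a zinc importer, had 6 peaks spread over a short gene, with scores of 1e-157, 2e-44, 5e-42, 5e-29, 2.5e-16 and 3.2e-14, and the strongest of them reached past the 3′ end of the RefSeq span. SLC39A6 (ZIP6), a zinc importer, had its strong peak, 750 bases in 2 blocks with a score of 1e-238, in the first part, and a weak one of 0.00019 in the final part. SLC30A1 (ZnT1), the zinc exporter of the plasma membrane, had peaks of 1e-161, 5e-40 and 0.0011 in parts 5, 3 and 6 of the span. SLC41A1, a magnesium transporter, had 5 peaks, the strongest, of 6.3e-74, in its first part. The iron exporter SLC40A1 (ferroportin) had a single peak of 1e-10, and on the plus strand SLC39A10 (ZIP10) had 2 of 2.8e-05 and 0.00022.

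Among mitochondrial carriers, SLC25A28 (mitoferrin-2, an iron importer) had the strongest peak, 511 bases in 2 blocks with a score of 1e-314, 390 bases before the 3′ end. SLC25A29, a carrier of basic amino acids, followed with a peak of 1377 bases and a score of 1e-247. SLC25A23, a calcium-regulated ATP-magnesium carrier, had the most peaks, 4, with scores of 1e-135, 2e-34, 1e-13 and 1.6e-12. SLC25A3, the phosphate carrier, had 1 weak peak of 3e-06. SLC25A5 and SLC25A6, the ADP/ATP carriers, had none, and copies of nearly the same sequence elsewhere in the genome make their reads uncertain.

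Folate and vitamin carriers with peaks were all on the minus strand. In the whole vitamin and choline group 10 members are known to be on the minus strand, and 3, all of SLC44, on the plus strand. SLC19A1, the reduced folate carrier, had 4 peaks, the strongest of 1e-97 in the eighth part. SLC46A1, the proton-coupled folate transporter, also had 4, of 1e-139, 3.2e-94, 2e-55 and 5e-28. The choline transporter SLC44A1 had none.

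The remaining groups are given by their leading members. SLC22A23, an orphan of the organic ion family, had 6 peaks, of which 5 were in the final part and the strongest, of 7.9e-47, was 780 bases long. SLC33A1, which brings acetyl-CoA into the endoplasmic reticulum, had its strong peak, 840 bases with a score of 1e-194, in the first part, and peaks of 3.6e-10 and 6.5e-07 further down. SLC8A1, the sodium-calcium exchanger, had 4 peaks from 7.9e-13 to 0.00012. The phosphate importers SLC20A2 and SLC20A1 differed, with 3 peaks of 1.6e-80, 5e-59 and 2e-37 on the minus strand and 1 of 3.9e-10 on the plus strand. SLC35A2, the importer of UDP-galactose into the Golgi, had peaks of 6.3e-43 and 0.00017. SLC29A1, a nucleoside transporter, had 1 of 0.0024, and SLC17A9 had 1 of 3.7e-07. SLC15A3, a lysosomal peptide and histidine transporter, had peaks of 1.3e-06 and 0.00085, both in its first part. SLC27A5, a bile acid CoA ligase, had peaks of 1e-05 and 0.0012 that lay outside its RefSeq span, the former at chr19:58480231-58480411 and the span starting at 58498333. Both shared bases with peaks of ZNF446 on the other strand, the former 141 bases with one of 5.5e-06 and the latter 26 bases with one of 7.6e-05.

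A list of 26 carriers with roles in nutrient uptake and ion balance had been drawn up with earlier results of these data known, so its count is a description only. Of these, 20 had a peak, where 39.8% of all members and 42.6% of all protein-coding genes had one, and 6 had none: SLC12A2, SLC4A7, SLC25A5, SLC25A6, SLC44A1 and SLC5A3.

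**Figure D3:**
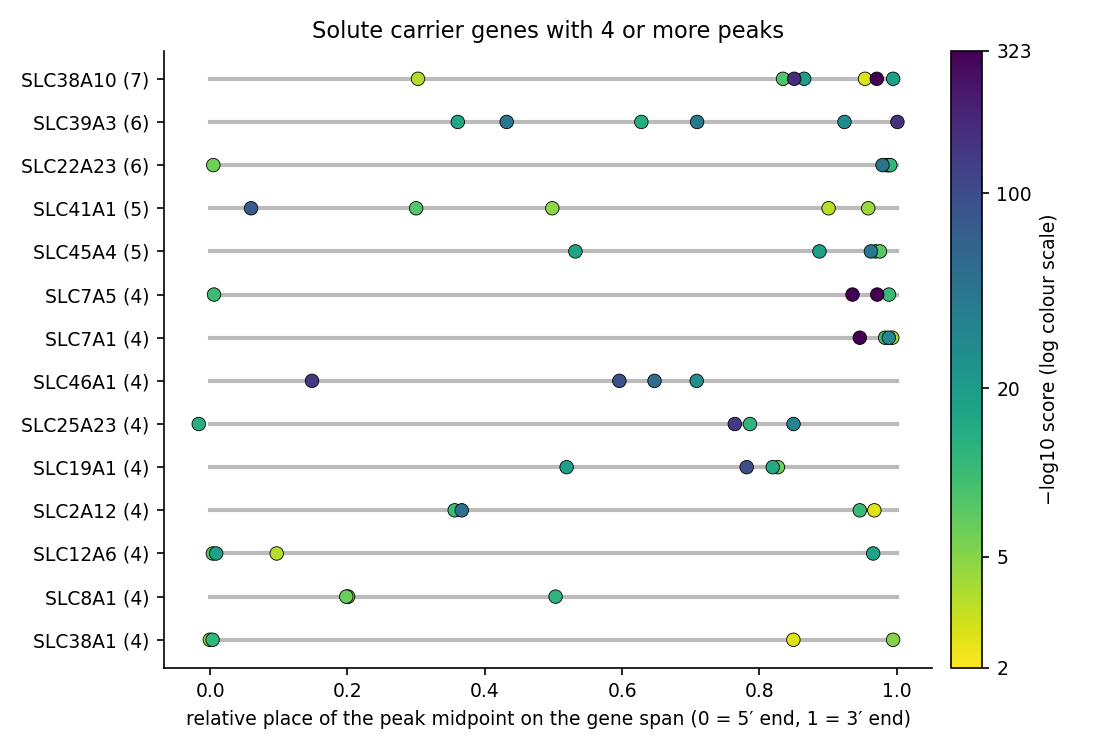
Peaks of 14 of the 15 solute carrier genes with 4 or more peaks, those with no peak in the shorter run of chromosomes that ends the list, drawn at the midpoint of each peak on the gene's genomic span from the 5′ end (0) to the 3′ end (1), coloured by −log10 score on a log colour scale from 2 to 323, where scores listed as 0 are drawn at 323. The number of peaks is given after each symbol. In SLC7A1 all 4 peaks sit at the 3′ end, whereas in SLC39A3 they are spread along the gene. In SLC46A1 the peaks at 0.596, 0.647 and 0.709 lie close together, and the other is at 0.148.

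Each peak was assigned to 1 of the 10 parts by its midpoint, counting introns as part of the span. Of the 272 peaks, 253 on 131 genes lay wholly inside the span. The final part held 106 of them, 41.9% (36.0 to 48.1), and 37.3% of the 16058 peaks on all protein-coding genes. The first part held 30, 11.9% (8.43 to 16.4), against 12.4%, and the ninth 12.6% against 13%. The other parts held 2.77% to 6.32% each. In both sets the final part held more peaks than any other, and the share at the 5′ end was smaller.

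By strand, the final part held 23 of 65 solute carrier peaks on the plus strand, 35.4% (24.9 to 47.5), against 36.4% over all genes. On the minus strand it held 83 of 188, 44.1% (37.2 to 51.3), against 37.6%. Counted by gene, 73 of 131 members, 55.7%, had a peak in the final part, against 53.0%, and in 56 of them, 42.7%, the strongest peak lay there, against 40.4%. Within 1000 bases of the 3′ end were 61 peaks, 24.1%, against 20.5%.

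**Figure D4:**
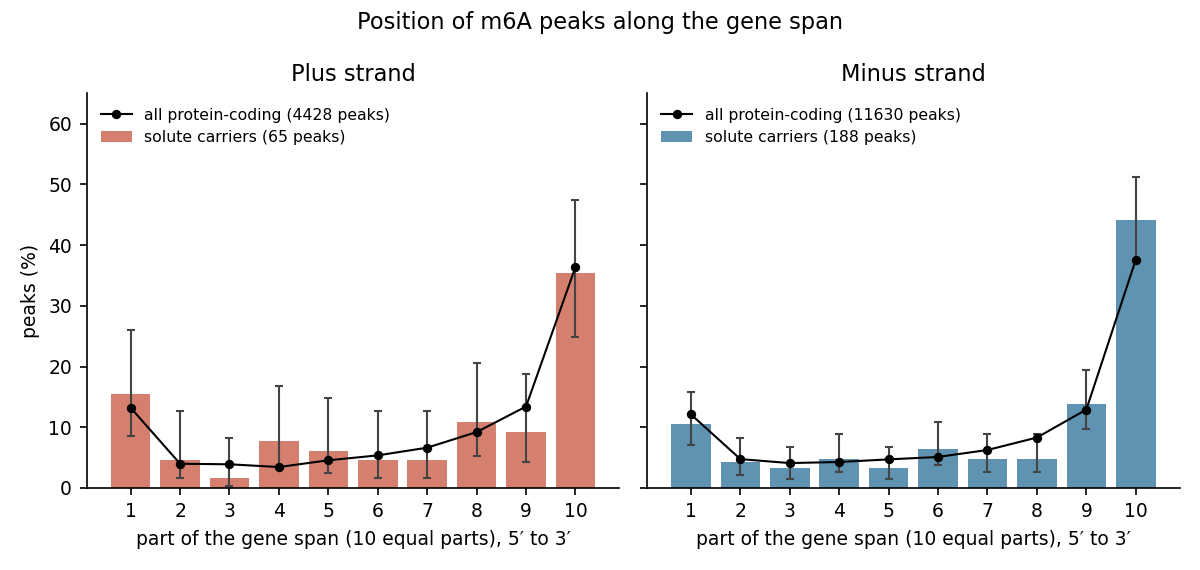
Share of peaks in each of 10 equal parts of the gene span, 5′ to 3′, in percent, for 65 plus-strand and 188 minus-strand solute carrier peaks (bars, with 95% Wilson intervals) and for all protein-coding genes (lines). The final part is highest on both strands, at 35.4% and 44.1% for the solute carriers, and the intervals hold the values of all genes there, on the minus strand only narrowly.

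The share in the final part also ranged between substrate groups. Among the metal transporters 6 of 33 peaks were in the final part, 18.2% (8.61 to 34.4), spread over 5 of 16 genes. Among the amino acid transporters 25 of 45 were, 55.6% (41.2 to 69.1), in 15 of 22 genes. The exchangers of chloride, bicarbonate and protons had 14 of 24 there, 58.3% (38.8 to 75.5), and the mitochondrial carriers 17 of 33, 51.5% (35.2 to 67.5). Over all protein-coding genes the share was 37.3%. The intervals of metals and amino acids do not overlap, but this pair was singled out from all the groups. A low share was not particular to metals. It was 12.5% (1 of 8) for calcium exchange, 25% (2 of 8) for nucleosides and nucleotide sugars and 26.3% (5 of 19) for vitamins and choline. Several peaks can come from 1 gene (SLC39A3 alone gave 5 of the 33), so these intervals are too narrow, and no test was made.

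A peak reached the first 50 bases after an annotated start site in 21 of the 108 members with a peak and a promoter entry, 19.4% (13.1 to 27.9), where 22.4% of all such protein-coding genes had one. These 21 genes had 22 such start sites. A start site is called under a peak if a peak covers any of these 50 bases. The first base itself, or a core in the window, can therefore lie outside the peak. The first 50 bases were searched on the gene's strand for the m6A core in 4 spellings, GGAC being the usual one, with AGAC as a variant, and with GAAC or also AAAC as others, and 15 of the 22, 68.2% (47.3 to 83.6), held at least 1. The share was 50.2% of 1631 protein-coding start sites under a peak and 46.2% of all 21728 protein-coding start sites. On the opposite strand of the same windows it was 31.8% for the 22 sites, 42.9% for all protein-coding start sites under a peak and 48.5% for all. GGAC alone was in 7 of the 22, 31.8%, in 22.9% of all protein-coding start sites under a peak and in 19.8% of all. The differences were not tested.

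The first 30 bases of the start sites with the strongest peaks are shown, written 5′ to 3′ from RefSeq on GRCh38.p14, first the pair with the smallest scores and then the 5 with the smallest scores among those with a core in these bases. Capitals mark the core.
SLC1A5: agagccacgcggcacgcccgggaggctttc
SLC2A1: aagaggcaagaggtagcaacagcgagcgtg
SLC7A8: agtgtgtggagaagccactctcccgAAACc
SLC38A2: acagccgcgcgacgccgccgccttaGAACg
SLC35A5: actGAACgtgcctgcgcaatgggtgtcggg
SLC3A2: agatgcagtagccgAAACtgcgcggaggca
SLC25A1: gagcgcggagttctggagtctcGGACccga

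They lie at chr19:46788565-46788594, chr1:42958839-42958868, chr14:23183631-23183660 and chr12:46372744-46372773 on the minus strand, chr3:112562045-112562074 and chr11:62880896-62880925 on the plus strand, and chr22:19178707-19178736 on the minus strand. The peaks over them had scores of 0 for SLC1A5, 1e-221 for SLC2A1, 7.9e-39 for SLC7A8, a light chain for neutral amino acids, and 5e-16 for SLC38A2. For SLC35A5, of the nucleotide sugar family, the score was 2.5e-14, for SLC3A2 4e-09 and for SLC25A1, the mitochondrial citrate carrier, 3e-07. The start sites of SLC3A2 and SLC35A5 lie inside their gene spans, and the other 5 are at the 5′ end of theirs. The peak of SLC35A5 shared 47 bases with a peak of ATG3, an autophagy gene on the other strand, at 5e-38. The pair with the strongest peaks held no core in any of their first 50 bases. A match is a description of these letters only, and the peaks also reach beyond these windows.

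The first base of the start site was A in 15 of the 22, 68.2% (47.3 to 83.6), in 58.2% of all protein-coding start sites under a peak and in 49.9% of all protein-coding start sites. The peak did not cover this first base in SLC12A4, SLC22A4, SLC31A1 and at chr1:169485970 in SLC19A2. The base was A in all of these but SLC12A4. An A at the start of a transcript can carry a related mark next to the cap, m6Am, which antibodies against m6A also bind. Its part in these peaks was not tested.

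Some solute carrier peaks shared bases with a peak on the opposite strand. This held for 26 of 272, 9.56% (6.61 to 13.6), on 21 genes, and for 7.54% of all peaks on protein-coding genes. On the plus strand it was 9 of 68, 13.2%, against 12%, and on the minus strand 17 of 204, 8.33%, against 5.81%. The 26 peaks formed 29 pairs, and in 17 pairs, 58.6%, the −log10 scores of both partners were within 10% of each other. Among the 17 are the pairs of SLC1A5, where both scores were listed at 0 and so were given the same value. The share was not computed over the pairs of all genes, so it describes these pairs and is no trait of the solute carriers.

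The pairs touch several of the strong members. In SLC46A1, 3 of 4 peaks were paired with peaks of SARM1, an enzyme of axon degeneration, at nearly the same scores: 5e-28 with 3.2e-28, 2e-55 with 1.3e-50 and 3.2e-94 with 1e-93. The peak of SLC46A1 at 1e-139 had no partner. The peak of SLC5A2 at 1e-108 lay wholly within one of RUSF1 at 1e-104 and ran past the end of its gene, and the other peaks of SLC5A2 were at 5.5e-09 and 0.00025. The long peak of SLC9A3 shared 839 bases with one of EXOC3, a subunit of the exocyst, at 1e-157.

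The 5′ peak of SLC1A5 shared 780 bases with peaks of ENSG00000275719, also listed at 0, whereas its 3′ peak was unpaired. In SLC22A23, 1 of 6 peaks was paired with a peak of PSMG4, a proteasome assembly factor, with the same score of 4e-12. In SLC19A1, 2 of 4 were paired with a peak of COL18A1, a collagen gene, and the strongest was not. In SLC38A10 1 of 7 was paired, at 6.3e-20, and in SLC25A29 the peak of 1e-247. For a pair of nearly equal scores, the strand from which the RNA came cannot be told apart. The strong peaks of SLC7A5, SLC7A1, SLC2A1, SLC25A28, SLC43A3, SLC39A6 and SLC16A3 had no partner.

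The list holds no expression levels, so the cell line label could not be checked by marker levels. Of 4 mesenchymal and basal markers, VIM, EGFR and ITGB1 had a peak and CD44 had none, and of 5 luminal or epithelial markers only ERBB2 had one, with ESR1, PGR, CDH1 and EPCAM without. Of a pair of blood and endothelial markers, PECAM1 had 2 peaks and PTPRC had none.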

How the data were processed

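Per the labels and the study's methods, the authors sequenced stranded libraries of 2 input and 2 IP samples, aligned reads with STAR to the GENCODE 33 annotation (build hg38, up to 20 alignments a read), called peaks with exomePeak and kept those past a fold enrichment and an FDR threshold of 0.05. They deposited 1 list of peaks whose score was read as a p-value. The header does not define the score, and it may be an FDR. Replicates had been combined by the authors, so samples were grouped as IP and input by their titles and not separated further. No column was left unmapped (0). Depth per library is unknown, and 4 libraries in 1 list limit the precision.

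Ensembl IDs were matched to symbols and these to RefSeq genes on GRCh38.p14: 19153 protein-coding genes by symbol and 157 by a synonym, with 727 unmatched and left out. Coordinates follow the deposited list and count from 1. Spans are RefSeq gene spans, and strand and start sites came from RefSeq promoter entries of 15444 protein-coding genes, since 73 members had none. Shares of genes with a peak by strand used the promoter entries, and values over members with a peak used the listed strand. Opposite-strand overlap required 1 shared base of the blocks. A score of 0 was ranked at a −log10 of 323. Shares carry 95% Wilson intervals. A genome, exons and UTRs were not used here.

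Named genes were a list of 26 carriers, the 6 members with the most peaks, the 10 with the smallest score, the leading member of each substrate group and members with an opposite-strand overlap. Other members are named for a start site or a group's count, and these were chosen after their values were seen. Members and lists were chosen with earlier results of these data known. Scripts (Python 3.11.15, pandas 2.3.3, NumPy 2.4.6, SciPy 1.17.1) were tested on simulated data. Alternatives were score limits, merging, removal of overlaps or of the second part of the list, and other definitions of members and spans. The values of 1 of the named genes are not reported here.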

Additional observations from a re-analysis of the deposited data

How the results depend on the processing

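Of 40 recomputed values, 29 stayed within their interval or spread and 11 moved. Limiting the list to scores at or under its median gave 24.2% of solute carrier genes with a peak, 1.70 peaks per gene and 86.0% of peaks on the minus strand, with 27.8% of all protein-coding genes. A limit of 1e-20 gave 17.0%, 1.29 and 93.4%, with 19.0% (18.96) of all genes. Stricter limits thus widened the imbalance between strands. Counting each gene once gave 65.9% on the minus strand, since minus-strand members had more peaks (chosen after seeing the data, as were current symbols only and leaving out SLC25, neither of which moved a value). Leaving out opposite-strand overlaps lowered the share of all protein-coding genes from 42.6% to 40.5% and that of the solute carriers from 39.8% to 36.9%. Where 50% of the shorter peak had to be shared, the shares were 40.8% and 37.8%. Only the solute carriers stayed within their interval, which is wider because they are far fewer genes. Merging moved none, nor did dropping the shorter run of chromosomes that ends the list. The share of solute carrier peaks in the final part of the span stayed within its interval, from 41.8% to 47.5%, under 8 alternatives. The position along exons and UTRs and matching by Ensembl cross-references were not run, as no annotation used here gives them. No paired analysis was possible because each peak has 1 value for all libraries together. For the same reason no replicate could be left out. Depth behind the peaks is unknown, so a missing peak is no evidence of unmethylated RNA.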
